A study of Homo sapiens with 6 samples.

Results

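NEAT1 and MALAT1 are neighbouring genes of human chromosome 11 that give long non-coding RNAs kept in the nucleus. Chromatin immunoprecipitation followed by sequencing (ChIP-seq) of HA-tagged METTL14 was examined over them in HepG2, a hepatocellular carcinoma cell line. The peak caller SICER joined enriched windows into candidate regions called islands, and each island has a read count from the immunoprecipitate (IP) and one from the input chromatin. The window from 65180000 to 65280000 of hg19 was chosen from the IP and input reads of both conditions, so its enrichment is given as a description without a test. It held 11 of the 106498 candidate islands of the series, 4 of 38696 in untreated cells and 7 of 67802 after DRB.

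All cells carried METTL14 as an overexpressed fusion with the HA tag at its amino end and EGFP at its carboxy end, from a lentiviral vector, and were a puromycin-selected pool sorted for high GFP. The labels do not say that the cells' own METTL14 was removed. The untreated condition comprised 2 IP and 2 input libraries, and the other comprised 1 IP and 1 input library of cells treated for 3 h with 100 µM DRB, a nucleoside analog that inhibits CDK9 and blocks the elongation of transcription. The deposited tables give 1 IP and 1 input count per island and condition, so the spread between replicates is not known for any value. Intervals are exact 95% intervals of the read counts. They cover counting error only, and reads are not independent molecules.

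NEAT1 RNA is the scaffold of paraspeckles, nuclear bodies that hold RNA-binding proteins such as SFPQ and NONO, and its gene gives a short and a long transcript from the same start. MALAT1 RNA is abundant and collects in nuclear speckles, where splicing factors are stored, and it is a well-known carrier of N6-methyladenosine. METTL14 is the RNA-binding partner of METTL3 in the complex that writes this mark, and the complex can be found on chromatin while RNA is being made. In RefSeq's annotation of GRCh38.p14, used here for gene order alone, MIR612, FAUP4, ENEMAL and LINC02736 come after NEAT1 and before MALAT1. The antisense gene TALAM1 and the small RNA gene MASCRNA come next after MALAT1. This order is by start and does not show which genes overlap. ChIP DNA carries no strand of transcription, so reads of MALAT1 and TALAM1 cannot be told apart wherever these genes overlap.

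In untreated cells both genes lay under islands with more IP than scaled input, and NEAT1 had the higher fold. A fold here is the IP count divided by the input count and multiplied by the authors' constant, which was 1.07 in the untreated table and 0.861 in the DRB table. The NEAT1 island, at 65183401 to 65207600, held 2031 reads from the IP against 1392 from the input, a fold of 1.57 (1.46 to 1.68). The MALAT1 island, at 65264201 to 65275400, held 911 against 756, a fold of 1.29 (1.17 to 1.43). The NEAT1 fold was 1.21 times the MALAT1 fold (1.07 to 1.36), a description of reads known when the window was chosen.

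The islands lay differently on the genes. NEAT1 occupies 65190245 to 65213011, 22.8 kb, and its untreated island began 6844 bp before the gene's start and ended 5411 bp before its end. That island therefore covered 76.2% of NEAT1, and 71.7% of the island was inside the gene. MALAT1 occupies 65265233 to 65273940, 8.71 kb, and lay wholly inside its island, which began 1032 bp before the gene's start and ended 1460 bp past its end. Each gene's start was thus covered in untreated cells, the last part of NEAT1 was under no candidate island, and reads before the start of either gene cannot be separated from those within it.

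**Figure D1:**
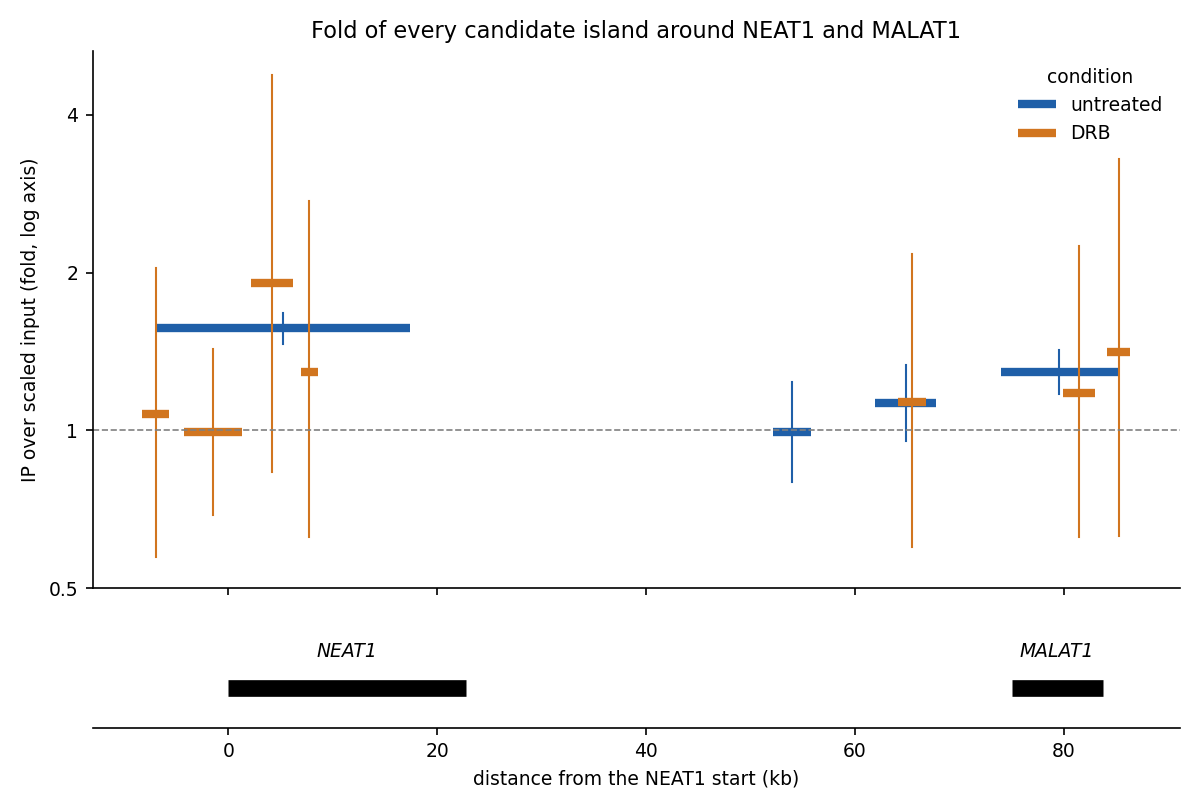
Fold of IP over scaled input (log axis) for the 11 candidate islands against the distance from the NEAT1 start in kb. Horizontal bars span each island, thin vertical lines are exact 95% counting intervals, blue is untreated, orange is DRB and black bars are the genes; the untreated NEAT1 island sits at 1.57 and spans most of the gene, while the DRB islands are short with wide intervals.

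RefSeq gives MALAT1 2 transcription starts 1307 bases apart, and the promoter windows are shown because the untreated island ran across the gene's start on hg19. NEAT1 had no promoter entry. Each window holds 250 bases before and 50 bases from the start, on the plus strand of GRCh38.p14, and which of these starts the hg19 start corresponds to was not tested, so a window may lie outside the island. Capitals mark matches, on either strand, to the TATA box core TATAAA, the CCAAT box, the GC box core GGGCGG, the AP-1 site TGACTCA or the letters GGACT of the methylation context, and no matches overlapped.
MALAT1 upstream start: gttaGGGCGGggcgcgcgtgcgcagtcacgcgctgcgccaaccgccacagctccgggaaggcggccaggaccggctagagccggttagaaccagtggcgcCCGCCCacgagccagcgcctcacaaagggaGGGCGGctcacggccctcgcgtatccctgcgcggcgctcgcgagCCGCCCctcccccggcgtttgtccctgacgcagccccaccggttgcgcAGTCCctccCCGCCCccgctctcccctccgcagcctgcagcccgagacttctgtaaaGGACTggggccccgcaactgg
MALAT1 downstream start: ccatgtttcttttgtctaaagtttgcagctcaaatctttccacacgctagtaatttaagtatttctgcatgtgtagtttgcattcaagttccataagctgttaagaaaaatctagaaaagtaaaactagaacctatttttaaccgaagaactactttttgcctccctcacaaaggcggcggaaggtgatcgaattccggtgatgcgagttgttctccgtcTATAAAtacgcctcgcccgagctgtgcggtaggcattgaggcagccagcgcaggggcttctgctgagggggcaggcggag

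The MALAT1 windows differed in composition. The upstream window was 73.7% G and C and held GGGCGG 5 times and GGACT 2 times, counting both strands. As RNA, GGACT is a common context of N6-methyladenosine. Its plus-strand match began at base 30 from the start. The other was on the minus strand, as AGTCC beginning 28 bases before the start, and would not read GGACT in RNA from this start. The downstream window was 46.0% G and C and held a single match, TATAAA, whose first base lay 30 bases before the start. Over all 35116 RefSeq windows of this length, 45.0% held GGGCGG, 44.2% held GGACT, 34.6% held CCAAT, 11.5% held TATAAA and 4.95% held TGACTCA, and the median content of G and C was 58.7%. Neither MALAT1 window held CCAAT or TGACTCA. A match describes letters in the window and shows no bound factor.

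The candidate islands between the genes gave a local level, chosen after the values were seen. The untreated island at 65242401 to 65246000 had 162 IP and 175 input reads, a fold of 0.99 (0.80 to 1.24). The island at 65252201 to 65258000 had 296 and 282 reads, a fold of 1.13 (0.95 to 1.33). Only islands have counts, so the rest of the stretch between the genes is not covered. Summed, the islands between the genes, 9.4 kb in all, had a fold of 1.08 (0.94 to 1.23), whose interval includes 1. The NEAT1 fold was 1.46 times this local fold (1.25 to 1.69) and the MALAT1 fold 1.20 times (1.02 to 1.42), and these ratios do not depend on the authors' scaling. Outside the window the nearest untreated islands were not significant, with folds of 0.82 (0.66 to 1.02) at 65149201 to 65152000 and 1.30 (1.00 to 1.69) at 65335401 to 65338200.

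In untreated cells, reads per kb of island differed more between the genes in the input than in the IP. NEAT1 had 83.9 IP reads per kb (80.3 to 87.7) and MALAT1 had 81.3 (76.1 to 86.8), a ratio of 1.03 (0.95 to 1.12). Unscaled input reads numbered 57.5 per kb over NEAT1 (54.5 to 60.6) and 67.5 over MALAT1 (62.8 to 72.5), a ratio of 0.85 (0.78 to 0.93). The interval of the IP ratio thus includes 1, whereas that of the input ratio lies below 1. The window was chosen with these reads known, so this contrast is a description and not a test. The islands between the genes had 48.7 IP and 48.6 input reads per kb. Against that level the IP was 1.72 times as dense over NEAT1 (1.56 to 1.91) and 1.67 times over MALAT1 (1.49 to 1.87), and the input was 1.18 (1.06 to 1.32) and 1.39 times as dense (1.23 to 1.56). The islands of both members were therefore richer in input chromatin, too, than the candidate islands between the genes, MALAT1 more so. Compared with the median of all untreated candidate islands, the input density was 1.10 times as high over NEAT1 and 1.29 times over MALAT1, and the IP density 1.60 and 1.56 times.

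**Figure D2:**
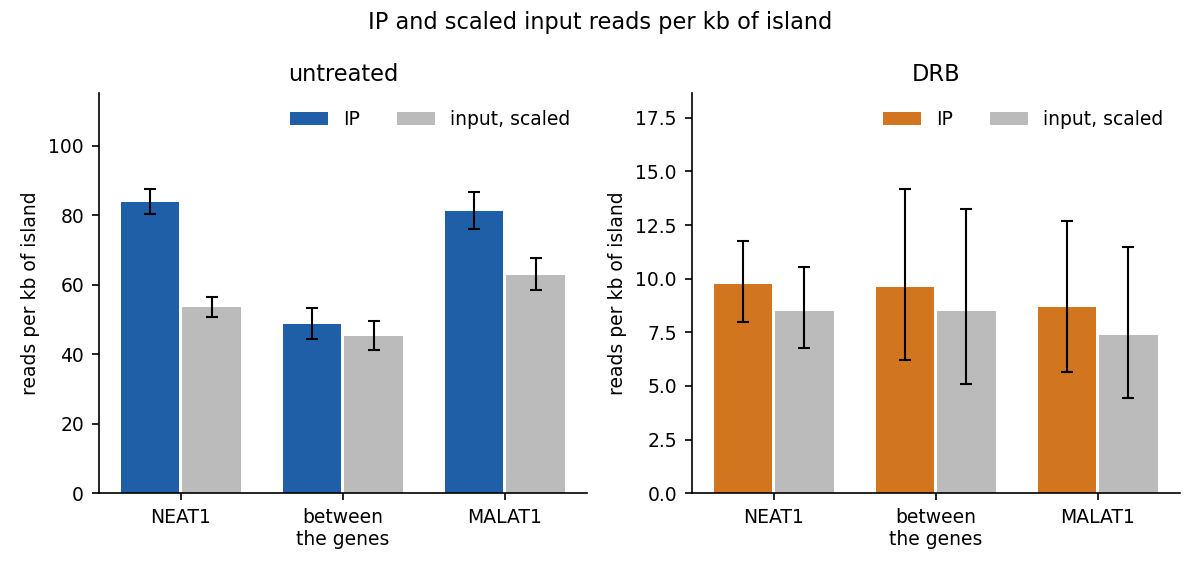
IP reads per kb and input reads per kb divided by the authors' constant, so that IP over scaled input is the fold, for the islands over NEAT1, between the genes and over MALAT1, untreated on the left and DRB on the right, on axes of different range. Error bars are exact 95% counting intervals; the untreated IP bars of the genes stand at 83.9 and 81.3 reads per kb with unequal input, and the intervals of all DRB bars are wide.

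Among all untreated candidates the NEAT1 fold was high, and more so among islands of its size. It lay above 98.5% of the 38696 untreated folds and above 99.8% of the 3189 islands with 0.5 to 2 times its width, whose median was 1.03. MALAT1 lay above 90.8% of all folds and above 97.8% of the 14491 islands of like width, whose median was 1.05. Within chromosome 11, whose 969 islands had a median fold of 1.11, the genes lay above 96.6% and 83.4%. Both islands were on the authors' significant list, which took 5.10% of the untreated candidates. The authors' deposited table gives false discovery rates of 4.70e-76 for NEAT1 and 6.60e-12 for MALAT1, against the list's threshold of 1e-04. Since the window was chosen with these tables in view, the 2 of 4 islands listed are not set against that share.

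**Figure D3:**
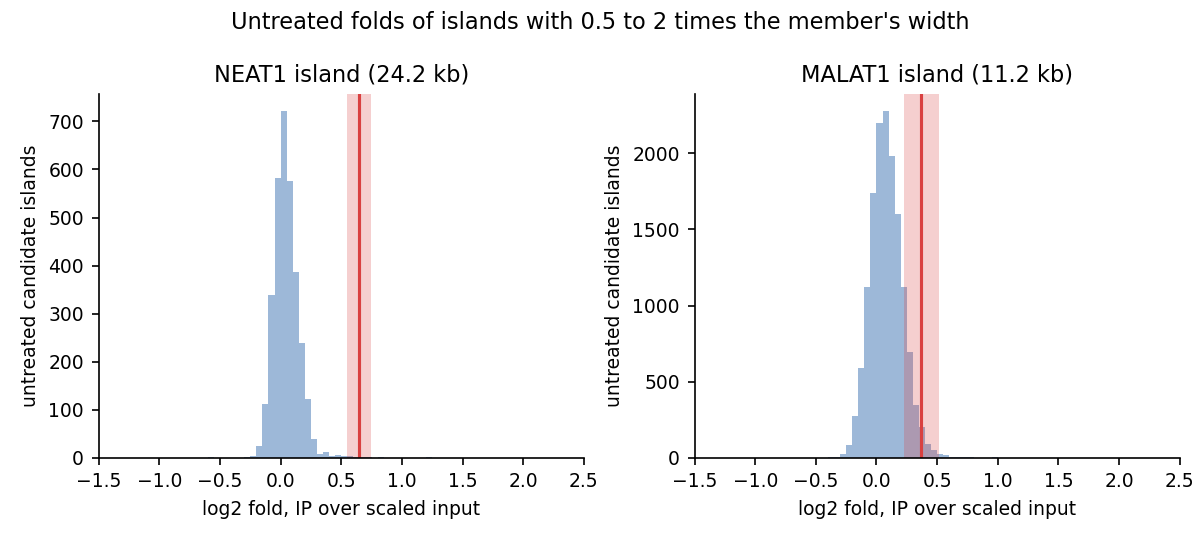
Number of untreated candidate islands by log2 fold, among islands with 0.5 to 2 times the width of the NEAT1 island (left) and of the MALAT1 island (right). The red line is the member and the pink band its exact 95% counting interval; NEAT1 lies in the far right tail, above 99.8% of the islands, and MALAT1 above 97.8%, and islands beyond the axis are not drawn.

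After DRB the genes were covered by short islands of few reads. NEAT1 lay under 3 islands with 109 IP and 82 input reads in all, a fold of 1.14 (0.85 to 1.54). MALAT1 lay under 1 island with 26 IP and 19 input reads, a fold of 1.18 (0.63 to 2.25). The island between the genes, at 65254401 to 65257000, had 25 and 19 reads, a fold of 1.13 (0.60 to 2.18). The 3 values lay close together, each with an interval that includes 1. At this depth no enrichment of either gene over the island between them was detectable. The NEAT1 fold was 1.01 times that of the island between (0.49 to 2.06), the MALAT1 fold 1.04 times (0.41 to 2.62), and NEAT1 over MALAT1 was 0.97 (0.47 to 1.97). These intervals also contain the untreated ratios of 1.46, 1.20 and 1.21.

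At NEAT1 the fold of the DRB islands within the gene was not separable from that of the island across its start. The latter, at 65186001 to 65191600 with 24.2% of its length inside NEAT1, had 68 IP and 59 input reads, a fold of 0.99 (0.69 to 1.43). Within the gene, the island at 65192401 to 65196400 had 20 and 9 reads, a fold of 1.91 (0.83 to 4.77). Its neighbour at 65197201 to 65198800 had 21 and 14 reads, a fold of 1.29 (0.63 to 2.74). Together the inner islands had a fold of 1.53 (0.90 to 2.68), 1.55 times that of the island across the start, and the interval of this ratio (0.80 to 3.03) includes 1. Another DRB island, at 65182001 to 65184600, lay before the gene but partly over the untreated NEAT1 island, with 25 and 20 reads and a fold of 1.08 (0.57 to 2.04). Input density among these islands was 1.51 times the median of all DRB candidates in the island across the start and 0.32 times in the island of highest fold. That highest fold thus rested on 9 input reads.

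At MALAT1 the single DRB island, at 65270201 to 65273200, lay inside the gene, from 4968 bp after its start to 740 bp before its end. The gene's start and the 4968 bp that follow were under no DRB island, whereas the untreated island covered them. A further DRB island at 65274401 to 65276600 began past the gene's end, with 18 IP and 11 input reads and a fold of 1.41 (0.63 to 3.30). DRB islands covered 34.5% of MALAT1 and 30.6% of NEAT1. A stretch without an island has no count in the tables and is not a stretch without reads.

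None of the 7 DRB islands in the window was on the authors' significant list, which took 4.76% of the DRB candidates. Of these 7, the false discovery rate in the authors' deposited table was lowest, at 0.00879, for the NEAT1 island at 65192401. Its fold lay above 72.1% of all DRB folds and above 87.7% of the 33930 DRB islands of like width. The other 6 lay below the median of all DRB candidates, 1.51, and their ranks ran from 11.0% to 42.2% of all DRB folds. The nearest DRB islands outside the window were not significant, with folds of 1.59 (0.78 to 3.40) at 65153201 to 65154400 and 1.02 (0.50 to 2.13) at 65318001 to 65319600.

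The fold at NEAT1 was lower with DRB than without. The DRB fold was 0.73 times the untreated fold, with an interval of 0.54 to 0.99 that falls just short of 1. At the untreated fold, the 82 DRB input reads over NEAT1 would have stood beside 149 IP reads, where 109 were counted. The ratio compares these libraries and not the conditions, because the DRB condition had 1 library of each kind. The region was also chosen with the reads of both conditions known. Choosing with the untreated fold known favours a ratio under 1, and the interval does not allow for that choice. Leaving out the DRB island across the gene's start, by taking islands at least 50% inside the gene, gave a ratio of 0.98 (0.57 to 1.72). The untreated side of that ratio was still the whole island, with the 6844 bp before the start. At MALAT1 the ratio was 0.91 (0.48 to 1.76) and for the islands between the genes 1.05 (0.55 to 2.05), and both intervals include 1.

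**Figure D4:**
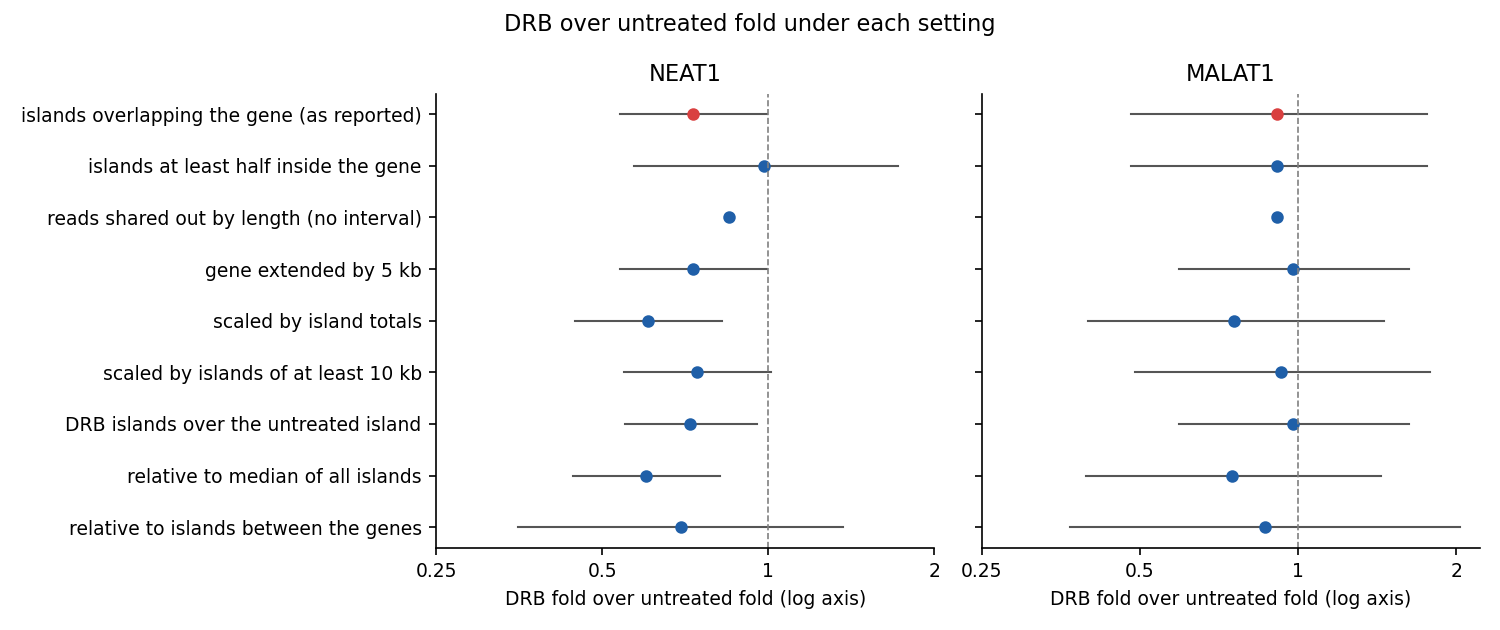
DRB fold over untreated fold (log axis) for NEAT1 (left) and MALAT1 (right) under each way of assigning islands and scaling reads, with exact 95% counting intervals (a normal interval on the log scale in the lowest row). The NEAT1 value moves from 0.60 to 0.98 and its interval reaches 1 in 3 of the 8 settings with an interval, and every MALAT1 interval includes 1.

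The change at NEAT1 stood low among islands seen in both conditions, less so among islands that were significant without DRB. For each untreated island the reads of every DRB island over it were summed. This gave NEAT1 134 IP and 102 input DRB reads over 4 islands and a ratio of 0.72 (0.55 to 0.95), and MALAT1 44 and 30 reads over 2 islands and a ratio of 0.98 (0.59 to 1.63). Over all 23639 such islands the median ratio was 1.22 (quartiles 1.01 and 1.49), and NEAT1 lay above 3.99% of them and MALAT1 above 21.3%. The ends of the counting intervals lay above 0.69% and 19.0% of these islands for NEAT1, and above 1.07% and 83.0% for MALAT1. Median folds of DRB candidates were higher for narrower islands. The median was 1.26 at 0.5 to 2 times a width of 5.6 kb and 1.55 at 0.5 to 2 times 1.6 kb. Whether this raised the median ratio of 1.22 was not tested, and the 23639 islands were not matched for width. Over the 1031 that were significant without DRB the median was 0.90, 61.6% were under 1, and NEAT1 lay above 26.9% and MALAT1 above 59.9%. Among significant islands of 0.5 to 2 times the member's width, the median was 0.91 over 168 islands for NEAT1 and 0.94 over 450 for MALAT1, with the members above 13.7% and 54.4%. Neither gene thus lay outside the middle range of the significant islands as a whole, whose quartiles were 0.71 and 1.14. Among those of like width, NEAT1 lay under the lower quartile of 0.78, a value inside its counting interval of 0.55 to 0.95. MALAT1 lay between the quartiles of its matched set, 0.77 and 1.21. The DRB islands covered 51.2% of the untreated NEAT1 island and 35.7% of the MALAT1 island, and the stretches behind the compared folds are therefore not identical.

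**Figure D5:**
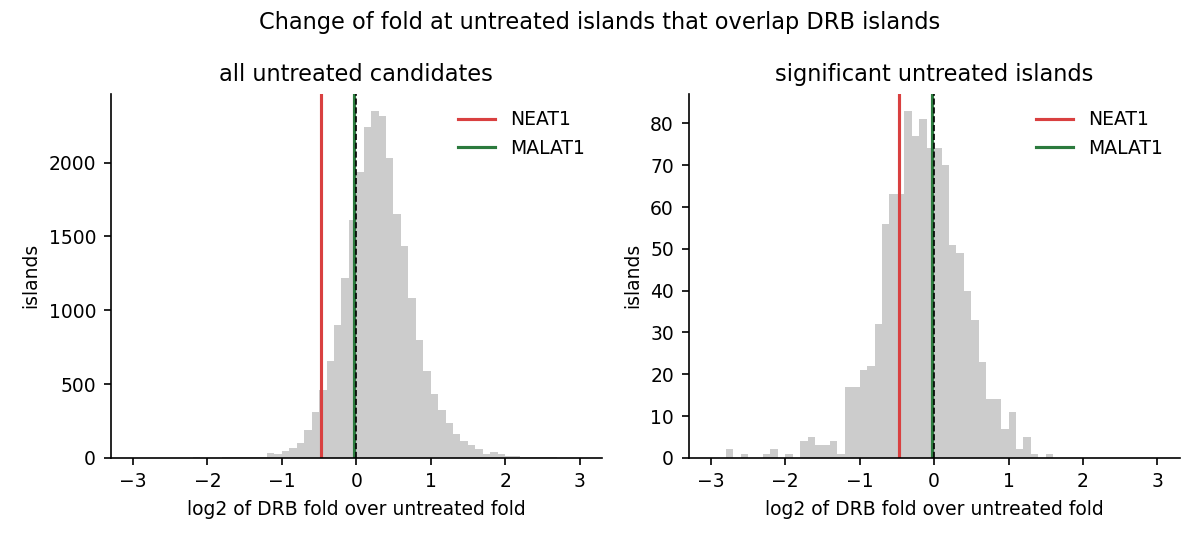
Number of untreated islands by log2 of DRB fold over untreated fold, for all candidates with a DRB island over them (left) and for the significant ones (right). Red marks NEAT1 at a ratio of 0.72, green marks MALAT1 at 0.98 and the dashed line is no difference; NEAT1 lies in the left tail of all candidates and near the lower quartile of the significant ones, and islands beyond the axis are not drawn.

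Depth limits every DRB value. Without the mitochondrial genome, candidate islands held 14495388 IP and 14661480 input reads in untreated cells and 1977419 and 1330018 after DRB. The mitochondrial genome took 51.2% of the DRB input reads in islands and 18.0% of the IP reads, against 8.56% and 5.51% in untreated cells. Over NEAT1 the DRB islands had 9.73 IP reads and 7.32 input reads per kb, and over MALAT1 8.67 and 6.33. Relative to the median island of the same condition, the IP density over NEAT1 was 1.60 times without DRB and 0.80 times with it, and over MALAT1 1.56 and 0.71 times. Input density went from 1.10 to 1.05 times over NEAT1 and from 1.29 to 0.90 times over MALAT1. These densities are over islands called separately, 24.2 kb and 11.2 kb at NEAT1 and 11.2 kb and 3.0 kb at MALAT1. The medians behind them also come from unlike islands, 4.8 kb wide without DRB and 2.0 kb with it.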

How the data were processed

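ChIP-seq islands of HA-METTL14 in HepG2 were analysed from 1 table per condition. Reads were handled with FastQC 0.11.5, Bowtie 1.1.2 and SICER on hg19, per the submitters' processing notes. For SICER's settings and for how the 2 untreated replicates were combined, the sources used here give nothing. The deposited counts are whole reads per island in IP and input, not normalized, and the deposited fold, a ratio, equals IP over input times a constant. The deposited p-value and false discovery rate are the authors' own. The files have no headers, so these meanings come from the values.

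Reads of islands overlapping a gene by at least 1 bp were summed. Fold intervals are Clopper-Pearson intervals of the IP share, and ratio intervals are exact conditional (Fisher's noncentral hypergeometric) intervals. Both were run on simulated independent counts with known folds. That check does not cover reads that are not independent or islands called from their own reads. Positions are 1-based. The gene positions came with the choice of the region, and the members were chosen with earlier results of these data known, as were the tests and alternatives. Named features were both genes and every island of the window. Planned lists of paraspeckle, speckle and writer genes were not located, because no hg19 annotation was used here. Alternatives were other island assignments and scalings, a 10 times lower false discovery rate, and other backgrounds; those relative to the islands between the genes, relative to all islands, and over the whole untreated island were added later. Python 3.11.15, SciPy 1.17.1, numpy 2.4.6, pandas 2.3.3 and matplotlib 3.10.9 were used.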

Additional observations from a re-analysis of the deposited data

How the results depend on the processing

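No paired analysis was possible because each table holds 1 IP and 1 input count per island, which also kept replicates from being left out in turn. All 42 alternative values of folds and their ratios stayed within the counting interval of the reported value. The 2 counts of significant islands were the same at a 10 times lower false discovery rate. Part of this was fixed in advance and shows no robustness. Each gene had 1 untreated island, so other island assignments returned the same untreated folds and the same ratio between them. The untreated false discovery rates, 4.70e-76 and 6.60e-12, lie far below either threshold, and a stricter threshold cannot add DRB islands. Percentiles moved with the background: the untreated NEAT1 fold lay above 99.8% of islands of like width and 96.6% of those on chromosome 11 (98.5% of all), MALAT1 above 97.8% of islands of like width and 83.4% of those on chromosome 11 (90.8% of all). The change lay above 26.9% of significant islands at NEAT1 (3.99% of all) and above 59.9% at MALAT1 (21.3% of all). Over the counting interval, the place among all islands ran from 0.69% to 19.0% at NEAT1 and from 1.07% to 83.0% at MALAT1. The NEAT1 ratio of DRB over untreated fold ranged from 0.60 to 0.98. Its interval reached 1 with islands of at least 10 kb as the scale (0.55 to 1.01), with islands at least 50% inside the gene (0.57 to 1.72) and relative to the islands between the genes (0.35 to 1.37, added after the data were seen). Scaled by island totals without the mitochondrial genome, the DRB folds fell to 0.89 at NEAT1 and 0.92 at MALAT1, below 1, with intervals that include 1. The MALAT1 percentile of change over islands at least 50% covered was not run, since DRB islands covered 35.7% of its island. The few DRB reads, 26 IP and 19 input over MALAT1, limit its ratio to 0.48 to 1.76.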

Other observations

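Ranking by reads gained places the genes elsewhere than ranking by fold. IP reads beyond the scaled input, which is the input count divided by the authors' constant, numbered 734 over the untreated NEAT1 island and 206 over MALAT1. By this excess NEAT1 ranked 15 and MALAT1 164 among the 1973 significant untreated islands, where the order by fold put them at 565 and 1587. On chromosome 11, NEAT1 was the widest of 75 significant islands and ranked 2 by excess and 30 by fold, and MALAT1 ranked 7 by width, 7 by excess and 65 by fold. The median significant island was 4.0 kb wide with a fold of 1.44, so the MALAT1 island was wider than the median and its fold of 1.29 was below it.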
